A study of Homo sapiens with 15 samples.

Results

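The ER chaperone, XBP1 and ATF6 secretory genes described here are 37 genes of the endoplasmic reticulum (ER): stress sensors and their transcription factors (6 genes), chaperones and co-chaperones (12), protein disulfide isomerases (4), ER-associated degradation (ERAD, 8), and translocation, signal peptide processing and vesicle traffic (7). They were chosen by gene symbol from a list, all 37 symbols were found in the expression tables of both cell lines, and they make up 37 of the 20468 genes in each table. RNA was sequenced from 2 established human myeloma lines, MM.1S and RPMI8226, grown alone or with HS5, an established human bone marrow stromal line, to follow how stroma alters gene expression in myeloma cells. MONO cells grew in monoculture, TSW cells in the upper chamber of a transwell over HS5 cells, and CO cells in the lower chamber together with HS5 cells, so that TSW and CO cells came from the same coculture system. There were 3 libraries of each condition from MM.1S and 2 of each from RPMI8226, 15 in all. Per the study's methods the myeloma cells were sorted as CD90-negative and CD38-positive, so THY1, which encodes CD90, and CD38 had a part in the sort. The reads on genes ranged from 9008909 in MM.1S MONO replicate 1 to 19050583 in MM.1S MONO replicate 2, and from 12479636 to 18789348 in RPMI8226.

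Proteins bound for the cell surface or for secretion enter the ER through a translocation channel, are folded there by chaperones and disulfide isomerases, and leave in COPII-coated vesicles, while misfolded proteins are drawn back into the cytosol and degraded by ERAD. When unfolded proteins build up, the sensors IRE1 (encoded by ERN1), ATF6 and PERK (EIF2AK3) signal from the ER membrane: IRE1 splices XBP1 mRNA so that it encodes an active transcription factor, ATF6 is cleaved to release one, and PERK slows translation. Plasma cells, which secrete antibody in bulk, need XBP1, and myeloma is a cancer of plasma cells.

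Levels are given as RPKM, the reads on a gene per kilobase of its transcript, scaled to the reads of the library on all genes. Differences are given as log2 fold changes on the log2(RPKM + 1) scale, which understates the change of genes at low levels, each with its standard error (SE). They were tested with limma, a linear model fitted to every gene that averaged 1 RPKM or more across a line's libraries, which kept 10153 genes in MM.1S and 10319 in RPMI8226, and all 37 ER genes in both. A gene was called, and counted as having risen or fallen, where the p-value adjusted over all genes tested was under 0.05 and the change was over 1.5-fold. The labels do not say that replicates were separate cultures, so these p-values measure the spread between these libraries, which may be technical. The tables of the 2 lines were scaled separately, so levels of the 2 lines are set side by side without a test. In such bulk RNA, fewer cells of a type and less RNA per cell cannot be told apart, and a gene's RNA level is not the activity of the protein it encodes.

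The MM.1S MONO libraries differed among themselves more than those of any other group. MM.1S MONO replicate 1, which had the fewest reads, differed from the mean of the other 2 MONO libraries by a median of 0.27 on the log2 scale over the 25% of genes with the shortest transcripts and of -0.35 over the 25% with the longest, and by -0.22 and 0.18 over the 25% with the lowest and the highest GC content. MONO replicate 3 differed the other way, by -0.19 and 0.19 over the same lengths and by 0.21 and -0.22 over the same GC contents. Over all genes the root mean square difference was 0.415 for replicate 1, 0.284 for replicate 2 and 0.285 for replicate 3. Calls that changed without replicate 1 are given both ways.

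Of the 9 plasma cell markers, all had reads in every library. JCHAIN, the joining chain of polymeric antibodies, was the most abundant, at 4102, 3402 and 3754 RPKM in the MM.1S MONO libraries and 1465 and 1366 in those of RPMI8226. SDC1, the plasma cell surface protein CD138, had its lowest and highest MM.1S levels at 143 and 183.5 RPKM and its RPMI8226 ones at 70.4 and 98.7, and for CD38, a gene of the sort, these were 38.4 and 64.98 and 15.97 and 53.7. In MM.1S, 2 of the 9 markers rose and 2 fell in TSW against MONO, and 1 rose and 2 fell in CO against MONO, whereas 5 rose and 2 fell of the 8 tested in RPMI8226 in either comparison. A list of 30 stromal markers showed a different pattern. In MM.1S it summed to 34.7, 36.4 and 35.3 RPKM in MONO, 29.1, 28.9 and 32.1 in TSW, and 195.0, 215.0 and 183.2 in CO, where 28 or 29 of the 30 genes had a read against 14 to 19 elsewhere. The most abundant of them over all MM.1S libraries, through its CO values, was MMP1, a collagenase, which was at 0 in every MONO and TSW library of both lines and at 44.55, 46.9 and 41.04 RPKM in the MM.1S CO libraries and 35.1 and 53.2 in those of RPMI8226. COL1A2, a chain of type I collagen, was likewise at 0 in every MONO and TSW library and at 10.8, 13.4 and 10.2 RPKM in MM.1S CO and 4.055 and 5.85 in RPMI8226 CO. In RPMI8226 the most abundant stromal marker was FN1, fibronectin, at 3990.0 and 4310.0 RPKM in MONO, 1678 and 1962 in TSW and 2007 and 2169 in CO, and the 30 genes summed to 4092 and 4418, 1879 and 2188, and 2257 and 2485 RPKM. Without FN1 the other 29 summed to 102 and 108 RPKM in MONO, 201 and 226 in TSW and 249 and 316.5 in CO. The most abundant of these was S100A6, at 69.7 and 74.8 RPKM in MONO, 178.3 and 203.1 in TSW and 134.1 and 157.0 in CO. The higher sum in TSW was thus mostly that of S100A6. THY1 stood at 0.570, 0.4895 and 0.453 RPKM in MM.1S CO and 0.077 and 0.111 in RPMI8226 CO. Of the 18 stromal markers tested in MM.1S, 16 rose in CO against MONO and 16 against TSW, and 1 rose and 1 fell in TSW against MONO. Of the 14 tested in RPMI8226, 12 rose and 1 fell in CO against MONO, 9 rose in CO against TSW, and 2 rose and 2 fell in TSW against MONO. The study's methods report that HS5 cells remained at a minimal level among the myeloma cells sorted from the lower chamber. The part of stromal RNA in the values of the CO libraries was not tested.

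Across the 37 ER genes, more rose than fell in coculture in each line. In MM.1S, 7 rose in TSW against MONO, namely XBP1, ATF6, ERN1, SEL1L, HERPUD1, EDEM1 and SEC24D, which is 18.9% of them beside 6.48% of all genes tested. In the same comparison 0 fell, beside 4.16% of all genes (limma; 7 of the 37 fell at an unadjusted p under 0.05, and voom, a test on read counts recovered from the RPKM values, called 1, CRELD2). In CO against MONO, 5 rose (XBP1, ATF6, ERN1, SEL1L and EDEM1; 13.5% beside 7.13% of all genes) and 1 fell (SDF2L1; 2.7% beside 4.65%). In RPMI8226, 14 rose in TSW against MONO, 37.8% of the 37 beside 14.5% of all genes, and 0 fell, beside 17.9% (limma; 0 at an unadjusted p under 0.05 and 0 by voom). In RPMI8226 CO against MONO, 16 rose, 43.2% beside 16.4%, and SDF2L1 alone fell, 2.7% beside 22.9%. The median log2 fold change of the 37 was 0.17 in MM.1S TSW and 0.10 in MM.1S CO, where that of all genes was 0.01 in both, and 0.49 and 0.38 in RPMI8226, where that of all genes was -0.08 and -0.09. The MM.1S CO median was 0.053 without MONO replicate 1, 0.060 without CO replicate 1 and 0.18 with quantile normalization. It was -0.015 with GC content and transcript length corrected by loess, an alternative chosen after seeing the data. The TSW and CO comparisons of a line share its MONO libraries. Without MM.1S MONO replicate 1, 5 of the 37 rose and 1 fell in TSW, and 3 rose and 1 fell in CO. Of all 10153 genes, 546 then rose and 420 fell in TSW, and 541 rose and 424 fell in CO. The MM.1S CO count of 5 was also 3 without CO replicate 1, 2 or 3, and 8 without MONO replicate 3, with CREB3L2 (0.68), EDEM3 (0.75) and SEC24D (0.69) as the further genes. Of all 10153 genes, 601, 736 and 617 rose without CO replicate 1, 2 or 3, and 1018 without MONO replicate 3, against 724 with all libraries.

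**Figure D1:**
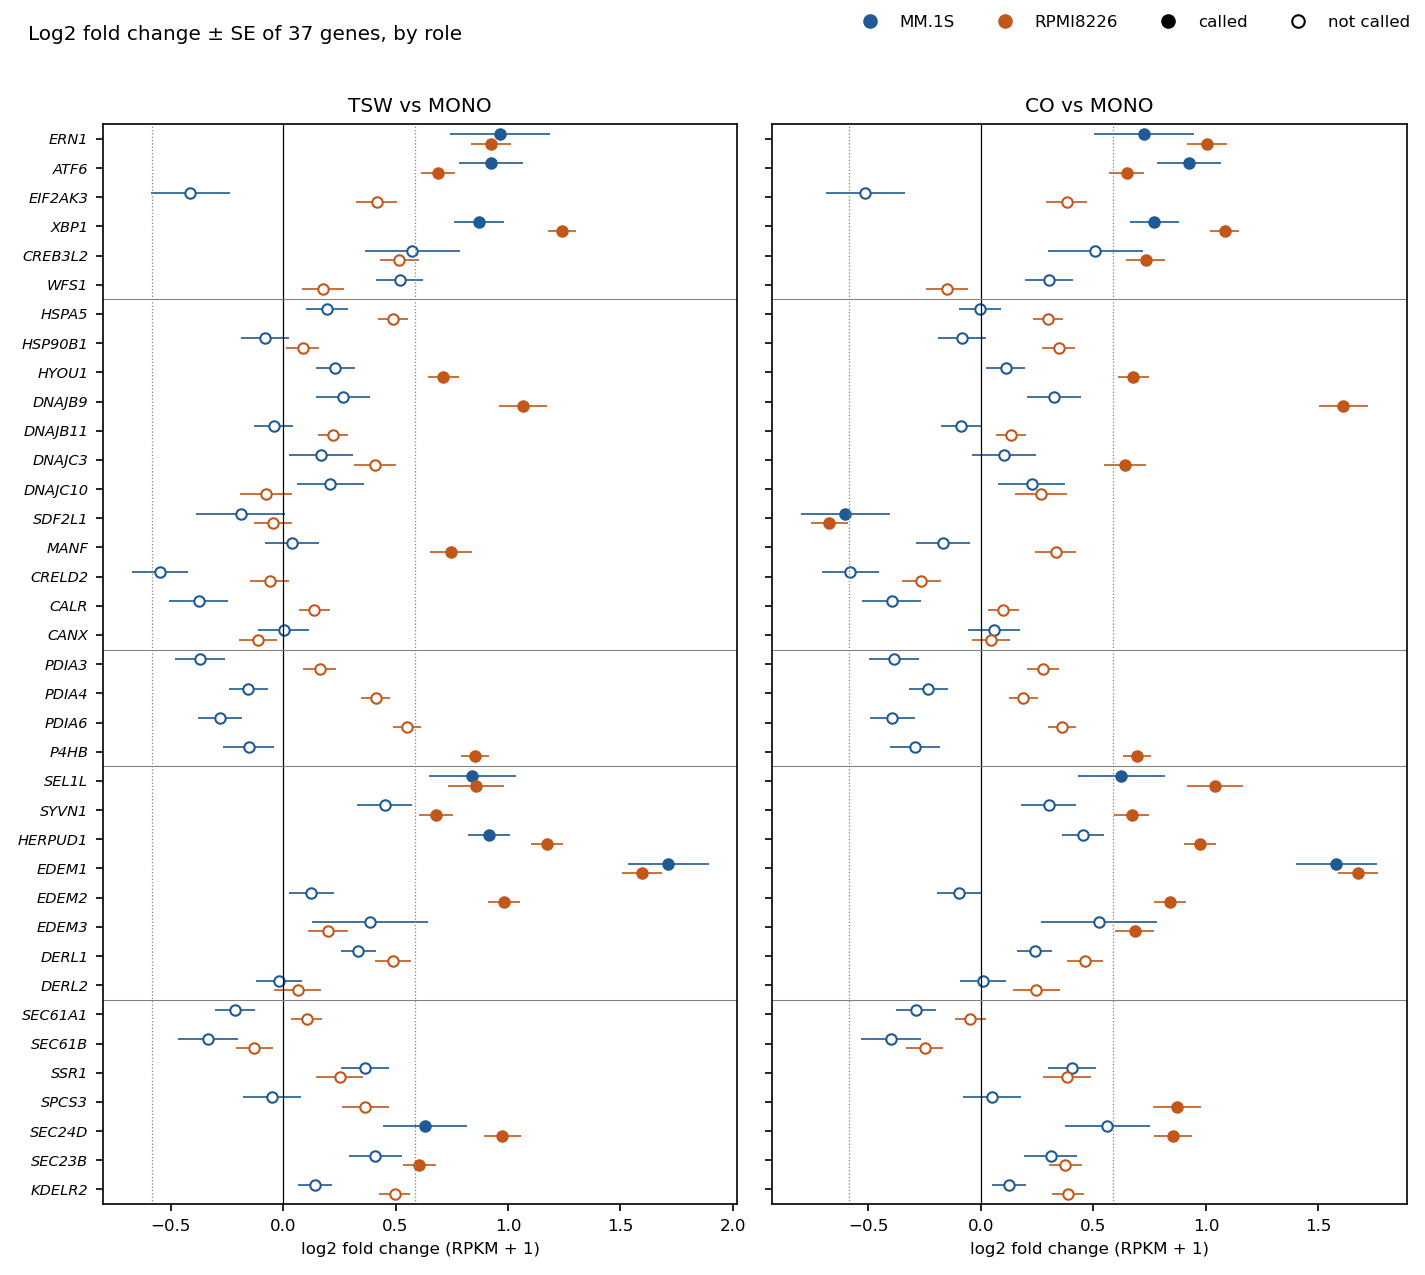
Log2 fold change of RPKM + 1 (x axis) ± SE for each of the 37 genes, ordered by role, in TSW against MONO (left) and CO against MONO (right), with MM.1S in blue, RPMI8226 in orange, filled points for called genes and dotted lines at 1.5-fold. EDEM1 lies farthest to the right in both lines, from 1.58 to 1.71, except that DNAJB9 lies beside it in RPMI8226 CO at 1.61, and the disulfide isomerases lie left of 0 in MM.1S and right of 0 in RPMI8226.

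Counts by role, here and below, are to be read beside the shares of all genes called in each comparison, given above. The sensors and their transcription factors had a median log2 fold change of 0.72 in MM.1S TSW, with 3 of 6 called higher, and of 0.62 in CO, again with 3. Without MONO replicate 1 the medians were 0.61, with 3 called higher and 1 lower, and 0.38, with 2 and 1. In RPMI8226 the medians were 0.60 with 3 called and 0.69 with 4. XBP1 (gene ID 7494, chr22:28794560-28800569 in the RefSeq annotation of GRCh38.p14), the transcription factor that IRE1 activates, was among the most abundant of the 37: by its MONO level it ranked 134 of the 10153 genes tested in MM.1S and 287 of 10319 in RPMI8226. In MM.1S it stood at 438, 422 and 404 RPKM in MONO, 790.1, 792 and 732 in TSW and 703, 795 and 665 in CO. Every coculture library was thus above every MONO library, by more than the spread within a condition. The log2 fold change was 0.87 (SE 0.11, adjusted p = 0.000231) in TSW and 0.77 (SE 0.11, adjusted p = 0.000517) in CO. In RPMI8226 it stood at 192 and 191 RPKM in MONO, 441 and 466 in TSW and 398 and 414 in CO. The groups again did not overlap, and the MONO level was below that in MM.1S. The log2 fold changes were 1.24 (SE 0.06, adjusted p = 8.78e-08) and 1.08 (SE 0.06, adjusted p = 1.51e-07). These gene-level values do not separate spliced from unspliced XBP1 mRNA.

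The promoter of XBP1 is shown because this gene was called higher in every comparison with MONO and its promoter holds an ER stress response element (ERSE), a motif described from promoters of ER chaperone genes. It runs from 250 bases before to 50 bases after the RefSeq transcription start in GRCh38.p14, at chr22:28800520-28800819 on the minus strand, printed 5′ to 3′ on the gene's strand. Capitals mark the ERSE, CCAAT followed by 9 bases of any kind and CCACG, which lies 52 to 34 bases before the start. Such a match is a description of these letters, and binding was not measured.
XBP1: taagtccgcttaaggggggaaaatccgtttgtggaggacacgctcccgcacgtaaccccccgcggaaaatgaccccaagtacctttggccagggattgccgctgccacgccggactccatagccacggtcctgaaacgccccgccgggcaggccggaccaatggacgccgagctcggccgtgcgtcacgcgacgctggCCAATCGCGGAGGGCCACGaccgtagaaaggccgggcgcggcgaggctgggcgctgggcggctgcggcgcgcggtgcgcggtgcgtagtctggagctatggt

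ATF6 (gene ID 22926, chr1:161766320-161964070) encodes the sensor whose cleaved fragment is itself a transcription factor. Its MM.1S levels were 14.5, 22.8 and 21.9 RPKM in MONO, 37.9, 36.3 and 38.7 in TSW and 38.6, 35.96 and 38.6 in CO. All 6 coculture libraries exceeded the highest MONO library, and MONO replicate 1 was the lowest. The log2 fold change was 0.92 (SE 0.14, adjusted p = 0.000907) in TSW and 0.93 (SE 0.14, adjusted p = 0.000905) in CO. In RPMI8226 the levels were 20.6 and 19.4 RPKM in MONO, 34.3 and 31.4 in TSW and 32.6 and 31.2 in CO. Again both cocultures lay above MONO without overlap, with log2 fold changes of 0.69 (SE 0.08, adjusted p = 2.25e-05) and 0.65 (SE 0.08, adjusted p = 2.67e-05). With the loess correction the RPMI8226 CO value was 0.50, below 1.5-fold.

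ERN1 (gene ID 2081, chr17:64039142-64130144) encodes IRE1, the kinase and RNase that splices XBP1 mRNA. In MM.1S it was measured at 14.25, 32.5 and 25.96 RPKM in MONO, 44.03, 50.4 and 43.2 in TSW and 38.2, 38.00 and 39.5 in CO. The MONO libraries were spread more widely than the other groups, with replicate 1 lowest, and all lay below every coculture library. The log2 fold change was 0.96 (SE 0.22, adjusted p = 0.00937) in TSW and 0.72 (SE 0.22, adjusted p = 0.0311) in CO. Without MONO replicate 1 the TSW value was 0.64 (limma adjusted p = 0.000725) and the CO value 0.40 (adjusted p = 0.011), no longer called. The CO call was also lost without CO replicate 1, 2 or 3, at log2 fold changes of 0.73, 0.73 and 0.71 and adjusted p of 0.0839, 0.0688 and 0.0904, with no filter on low values (0.0662) and with only the 2 conditions in the fit (0.0705). In RPMI8226 ERN1 stood at 23.5 and 25.9 RPKM in MONO, 51.01 and 44.6 in TSW and 52.8 and 48.2 in CO. Both cocultures were near double the MONO level with no overlap, and the log2 fold changes were 0.92 (SE 0.09, adjusted p = 7.24e-06) and 1.004 (SE 0.09, adjusted p = 2.81e-06).

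EIF2AK3 (gene ID 9451, chr2:88556741-88628145) encodes PERK, the sensor kinase that slows translation. Its MM.1S levels were 12.3, 21.5 and 21.6 RPKM in MONO, 12.55, 13.5 and 13.55 in TSW and 12.5, 11.8 and 12.5 in CO. MONO replicates 2 and 3 were well above every coculture library, and MONO replicate 1 lay among or below them, so the groups overlapped through that library alone. With all libraries EIF2AK3 was not called, at -0.41 (SE 0.17, adjusted p = 0.102) in TSW and -0.51 (SE 0.17, adjusted p = 0.0457) in CO. Without MONO replicate 1 it fell, by log2 fold changes of -0.67 (limma adjusted p = 5.74e-05) and -0.77 (adjusted p = 1.96e-05), and with the loess correction it fell in CO, by -0.65 (adjusted p = 0.00225). In RPMI8226 the levels were 8.80 and 9.675 RPKM in MONO, 13.4 and 11.9 in TSW and 12.55 and 12.1 in CO. There every coculture library was above both MONO libraries, by log2 fold changes under 1.5-fold of 0.41 (SE 0.09, adjusted p = 0.00221) and 0.38 (SE 0.09, adjusted p = 0.00331).

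CREB3L2, a transcription factor released from the membrane by cleavage like ATF6, stood in RPMI8226 at 15.7 and 16.5 RPKM in MONO, 25.03 and 22.1 in TSW and 28.6 and 26.3 in CO. It rose in CO by 0.73 (SE 0.09, adjusted p = 2.37e-05) and was not called in TSW, at 0.52, except with median-of-ratios scaling (0.59) or without TSW replicate 2 (0.60). In MM.1S its levels were 13.8, 27.7 and 28.4 RPKM in MONO, 33.7, 34.3 and 32.7 in TSW and 33.8, 31.5 and 30.9 in CO. MONO replicate 1 was again the lowest library, and neither comparison was called, at 0.57 and 0.51, although TSW was without MONO replicate 2 (0.73) or 3 (0.75) and CO without MONO replicate 3. Without MONO replicate 1 the values were 0.25 in TSW and 0.18 in CO. WFS1, a membrane protein of the ER, was at 10.3, 8.68 and 9.03 RPKM in MM.1S MONO, 14.6, 14.5 and 12.35 in TSW and 11.2, 12.8 and 11.2 in CO, and from 3.74 to 5.22 in RPMI8226. Every MM.1S coculture library was above every MONO library, at 0.52 (SE 0.10, adjusted p = 0.00465) in TSW and 0.30 (SE 0.10, adjusted p = 0.0487) in CO, under 1.5-fold, and TSW was called with the loess correction (0.62) or without TSW replicate 3 (0.59).

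**Figure D2:**
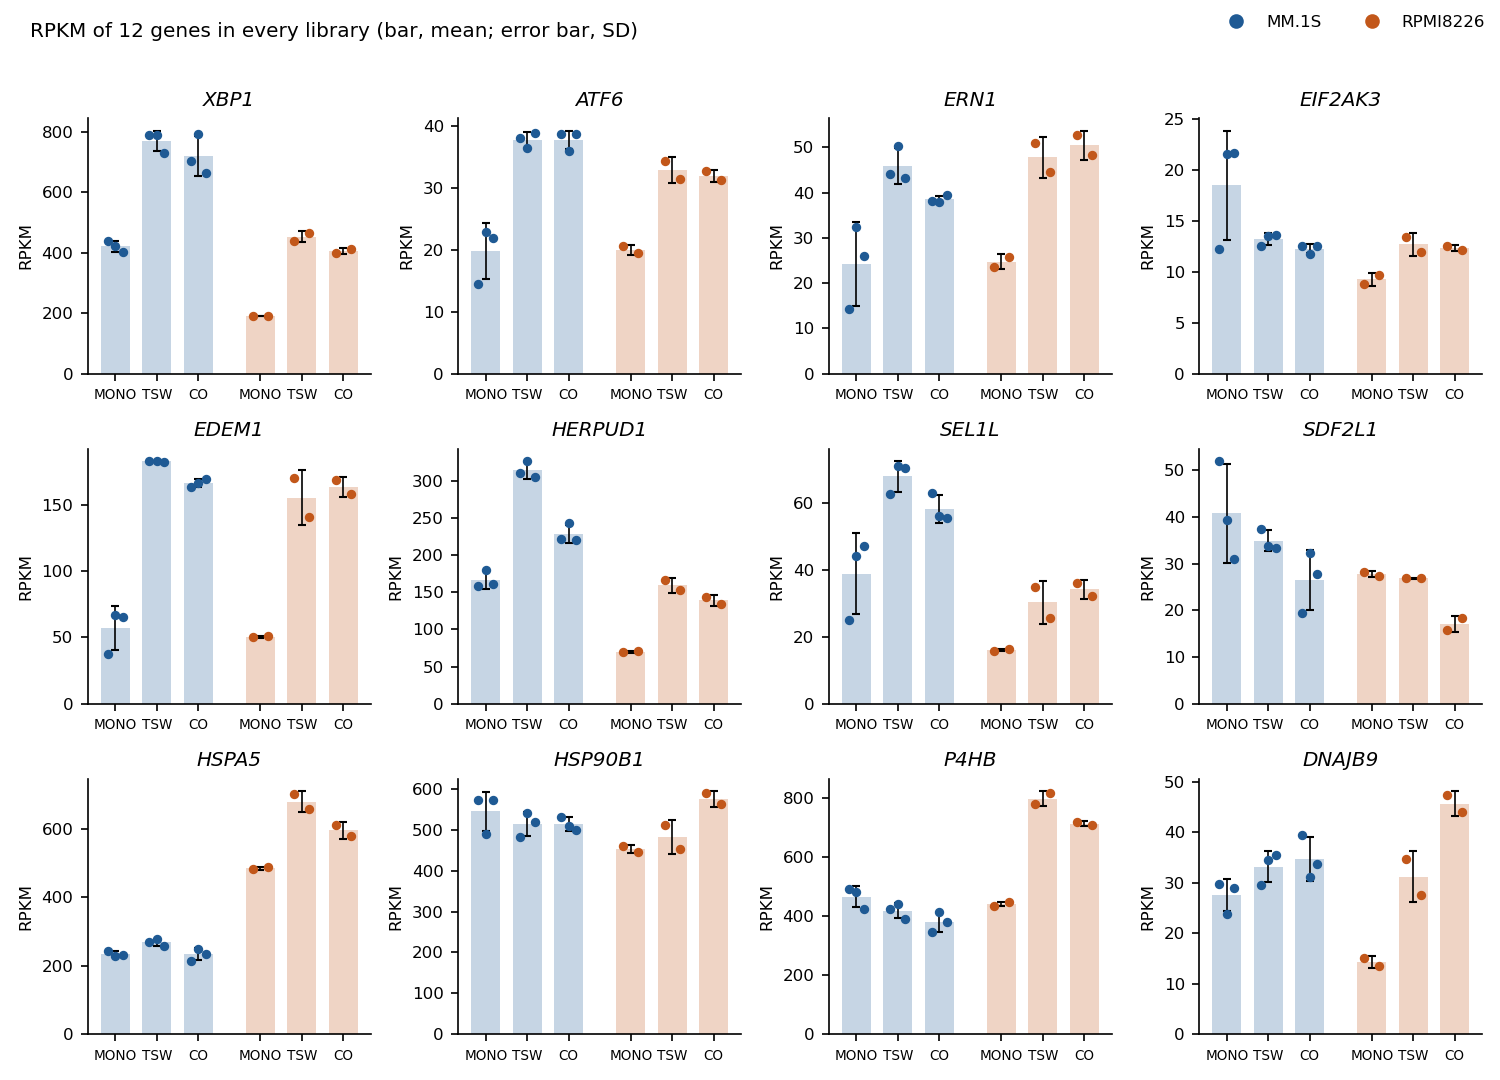
RPKM (y axis) of 12 of the genes in each library of the 3 conditions (x axis), with points for libraries, bars for means and error bars for SD, MM.1S in blue and RPMI8226 in orange. EDEM1 rises from 37.7 to 67.2 RPKM in MM.1S MONO to 163.8 or more in every MM.1S coculture library, whereas HSP90B1 in MM.1S lies between 484.5 and 574.0 RPKM in all 3 conditions.

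The chaperones and co-chaperones had medians near 0 in MM.1S, 0.02 in TSW and -0.04 in CO, or -0.02 and -0.13 with the loess correction and 0.11 in both after quantile normalization. Of these 12 genes, limma called 0 higher in either MM.1S comparison, with 1 higher in each at an unadjusted p under 0.05 and 0 by voom. In TSW 0 were lower (2 at an unadjusted p under 0.05, 1 by voom) and in CO 1 was. In RPMI8226 the medians were 0.18, or 0.32 with the loess correction, with 3 called higher and 0.28 with 3 called higher and 1 lower. Of all genes, 14.5% in TSW and 16.4% in CO were called higher there, and 17.9% and 22.9% lower. HSPA5 (gene ID 3309, chr9:125234853-125241343) encodes BiP, the HSP70 chaperone of the ER lumen that also holds the sensors inactive. Its MM.1S levels were 243.5, 227 and 230.3 RPKM in MONO, 269.8, 277 and 256 in TSW and 215, 249.6 and 235 in CO. The TSW libraries lay just above MONO, and the CO libraries overlapped MONO. Neither comparison was called, at 0.20 (SE 0.09, adjusted p = 0.146) in TSW and -0.01 (SE 0.09, adjusted p = 0.968) in CO, a CO value that turned to 0.18 under quantile normalization, to 0.02 without MONO replicate 1 and to 0.05 without CO replicate 1. In RPMI8226 HSPA5 stood at 481 and 487 RPKM in MONO, 702 and 657.5 in TSW and 613 and 578 in CO. There both cocultures were above MONO without overlap, by less than 1.5-fold, at 0.49 (SE 0.07, adjusted p = 9.36e-05) and 0.30 (SE 0.07, adjusted p = 0.00224).

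HSP90B1 (gene ID 7184, chr12:103930410-103947926) encodes GRP94, the HSP90 chaperone of the ER. In MM.1S it was at 573.5, 491 and 574 RPKM in MONO, 484.5, 542 and 519 in TSW and 533, 510.3 and 499.6 in CO. The 3 groups overlapped, and the log2 fold changes, -0.08 (SE 0.11, adjusted p = 0.595) in TSW and -0.08 (SE 0.11, adjusted p = 0.571) in CO, were not called and turned to 0.01 and 0.12 under quantile normalization. They moved to -0.16 without MM.1S MONO replicate 2 and -0.04 without MM.1S TSW replicate 1 for TSW, and to -0.16 without MM.1S MONO replicate 2 and -0.05 without MM.1S MONO replicate 3 for CO. In RPMI8226 it was at 462 and 447 RPKM in MONO, 512 and 454 in TSW and 591 and 564 in CO. The CO libraries were above the others and TSW overlapped MONO, with log2 fold changes of 0.09 (SE 0.07, adjusted p = 0.322) in TSW, which turned to -0.04 under quantile normalization and was 0.17 without TSW replicate 2 and -0.0016 without TSW replicate 1, and 0.35 (SE 0.07, adjusted p = 0.0017) in CO, neither called. HSPA5 and HSP90B1 have pseudogene copies elsewhere in the genome, and the handling of reads that map to several places is not given in the sources used here.

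The HSPA5 promoter is shown for comparison with that of XBP1, since it holds the same ERSE, in capitals, 66 to 48 bases before the start, while the gene was not called in any comparison. It lies at chr9:125241294-125241593 on the minus strand of GRCh38.p14 and is printed on the gene's strand.
HSPA5: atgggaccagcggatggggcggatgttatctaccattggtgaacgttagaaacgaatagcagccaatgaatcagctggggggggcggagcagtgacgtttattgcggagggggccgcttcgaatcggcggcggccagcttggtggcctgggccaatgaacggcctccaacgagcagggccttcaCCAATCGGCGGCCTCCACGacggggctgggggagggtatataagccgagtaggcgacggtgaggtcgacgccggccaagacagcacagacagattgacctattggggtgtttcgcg

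HYOU1, an HSP70 relative that exchanges nucleotide for BiP, stood in RPMI8226 at 158 and 161 RPKM in MONO, 261 and 264 in TSW and 269.7 and 243 in CO. Coculture libraries were all above MONO and the gene rose in both, by 0.71 (SE 0.07, adjusted p = 8.12e-06) and 0.68 (SE 0.07, adjusted p = 8.64e-06). In MM.1S HYOU1 was at 103, 104 and 96.5 RPKM in MONO, 119.7, 126.5 and 111 in TSW and 112, 111 and 105 in CO, with log2 fold changes of 0.23 and 0.11 that were not called. Its promoter, at chr11:119057156-119057455 on the minus strand, is shown because it held more kinds of the motifs searched than that of any other of the 33 genes with an entry. Capitals mark ERSE-II, ATTGG followed by 1 base and CCACG, found on the opposite strand at bases 185 to 175 and 79 to 69 before the start, and GACGTG, the inner part of the XBP1 and ATF6 motif known as the UPRE, on the gene's strand at 187 to 182 and 81 to 76, where it overlaps each ERSE-II. At 188 to 181 the first of these is part of the whole UPRE core, TGACGTGG.
HYOU1: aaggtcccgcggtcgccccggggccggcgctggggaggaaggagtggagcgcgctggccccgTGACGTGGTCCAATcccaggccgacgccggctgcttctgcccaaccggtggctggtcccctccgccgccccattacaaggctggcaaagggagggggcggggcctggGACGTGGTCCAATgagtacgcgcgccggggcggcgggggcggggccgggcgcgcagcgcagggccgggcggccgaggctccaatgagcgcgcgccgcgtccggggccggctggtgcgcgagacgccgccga

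DNAJB9, a J-domain co-chaperone of BiP, had the largest change of the chaperone genes in RPMI8226, where it stood at 15.1 and 13.5 RPKM in MONO, 34.8 and 27.7 in TSW and 47.5 and 43.97 in CO. The 3 groups were in that order without overlap, and it rose by 1.07 (SE 0.11, adjusted p = 1.04e-05) in TSW and 1.61 (SE 0.11, adjusted p = 3.68e-07) in CO. The MM.1S levels were 29.8, 23.85 and 28.9 RPKM in MONO, 29.6, 34.6 and 35.4 in TSW and 39.45, 31.05 and 33.7 in CO. MM.1S TSW overlapped MONO, and the log2 fold changes of 0.27, or 0.17 without MM.1S MONO replicate 2, in TSW and 0.33 in CO were not called. MANF, a secreted ER protein that binds BiP, was at 125 and 137 RPKM in RPMI8226 MONO, 224 and 217 in TSW and 182 and 149.7 in CO, and rose in TSW only by the thresholds used, at 0.75 (SE 0.09, adjusted p = 4.69e-05) against 0.33 (SE 0.09, adjusted p = 0.00805) in CO, which was 0.60 and called with the loess correction, and 0.19 without RPMI8226 CO replicate 1. In MM.1S MANF lay between 79.7 and 115 RPKM, and both cocultures overlapped MONO. DNAJC3, another J-domain partner of BiP, was at 22.6 and 22.4 RPKM in RPMI8226 MONO, 32.98 and 27.7 in TSW and 37.7 and 33.9 in CO. It rose in CO, by 0.64 (SE 0.09, adjusted p = 0.000118), a value that was 0.57 without CO replicate 1 and 0.53 with the loess correction, both below 1.5-fold. In MM.1S DNAJC3 lay between 17.8 and 28.1 RPKM.

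SDF2L1, a small partner of the J-domain co-chaperones, was the 1 gene of the 37 called lower at the filter, scale and thresholds given above with all libraries. In RPMI8226 it was at 28.2 and 27.4 RPKM in MONO, 26.85 and 26.9 in TSW and 15.85 and 18.3 in CO. The CO libraries lay below the rest, with a log2 fold change of -0.67 (SE 0.08, adjusted p = 3.52e-05) in CO against -0.05 in TSW. Without CO replicate 1 the CO value was -0.58, with median-of-ratios scaling -0.56, with quantile normalization -0.55 and with the loess correction -0.30, all below 1.5-fold. In MM.1S its levels were 52.1, 39.4 and 30.96 RPKM in MONO, 37.5, 33.9 and 33.5 in TSW and 19.4, 32.2 and 27.9 in CO. MM.1S MONO replicate 1 was the highest library and CO replicate 1 the lowest, and the CO groups overlapped MONO through CO replicate 2. The MM.1S CO value, -0.60 (SE 0.20, adjusted p = 0.0393), was close to the threshold and was lost without MONO replicate 1 (-0.42, limma adjusted p = 0.0826) or 2 (-0.61, 0.0709), and without CO replicate 1 (-0.40, 0.152) or 3 (-0.65, 0.0779). Leaving out TSW replicate 1, 2 or 3 kept it at -0.60 with adjusted p of 0.0571, 0.0591 and 0.0578, and the loess correction gave -0.33 and quantile normalization -0.57, both below 1.5-fold. It was also lost with no filter on low values (adjusted p = 0.0777), with only the 2 conditions in the fit (0.0864) and with the replicate number as a block (0.0612).

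The other chaperones were not called in any comparison within a line at those settings with all libraries. CALR, a lectin chaperone that binds sugars on new glycoproteins, was the most abundant of the 37 genes in MONO, at 1075, 859.6 and 780.5 RPKM in MM.1S MONO, 708, 697 and 666 in TSW and 675, 715 and 654 in CO, and between 1059 and 1205 in RPMI8226. In MM.1S every CALR coculture library lay below every MONO library, by under 1.5-fold, at -0.38 in TSW and -0.40 in CO, or -0.25 and -0.27 without MONO replicate 1. Its membrane-bound relative CANX ranged from 248 to 328 RPKM in MM.1S and from 377 to 472 in RPMI8226. The J-domain protein DNAJB11 ranged from 113 to 132 and from 140.1 to 169 RPKM in the 2 lines, and DNAJC10, a disulfide reductase with a J domain, from 18.03 to 29.6 and from 24.5 to 36.5. CRELD2, an ER protein induced by stress, was the least abundant chaperone gene in MM.1S, at 7.44, 7.66 and 6.51 RPKM in MM.1S MONO, 4.19, 5.77 and 3.98 in TSW and 4.40, 4.71 and 4.325 in CO, and from 13.4 to 17.8 in RPMI8226. In MM.1S every coculture library was below every MONO library, by log2 fold changes of -0.55 (SE 0.13, adjusted p = 0.00881) and -0.58 (SE 0.13, adjusted p = 0.00622) that were under 1.5-fold on the log2(RPKM + 1) scale. CRELD2 was called lower in both with a pseudocount of 0.1 (-0.64 and -0.67), by voom (-0.64 and -0.68), with quantile normalization (-0.61 and -0.66) and without MONO replicate 3 (-0.61 and -0.64). It was also called in TSW without TSW replicate 2 (-0.69), and in CO with median-of-ratios scaling (-0.59) and without CO replicate 2 (-0.61).

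The 4 protein disulfide isomerases, which form and rearrange disulfide bonds, had a median of -0.22 in MM.1S TSW and -0.34 in CO, which was -0.20 with quantile normalization, and of 0.48 and 0.32 in RPMI8226. In MM.1S limma called 0 of 4 in either direction, whereas at an unadjusted p under 0.05 there were 0 higher and 2 lower in TSW and 0 higher and 4 lower in CO, and voom called 0. P4HB, the founding isomerase, was the member that rose in RPMI8226, where it stood at 434 and 446 RPKM in MONO, 778.5 and 815 in TSW and 718 and 706 in CO. The log2 fold changes were 0.85 (SE 0.06, adjusted p = 1.06e-06) and 0.69 (SE 0.06, adjusted p = 3.50e-06), with no overlap between the groups. In MM.1S its levels were 491, 479.8 and 423.5 RPKM in MONO, 423.5, 438.5 and 389 in TSW and 345, 413 and 380.5 in CO. There the TSW libraries overlapped MONO and the CO libraries lay below it, at -0.15 and -0.29, and neither was called. PDIA6 was at 132, 159 and 147 RPKM in MM.1S MONO, 122, 124 and 113 in TSW and 101, 116 and 115 in CO, against 149.9 and 152.5, 218 and 226 and 198 and 190.4 in RPMI8226. Its MM.1S coculture libraries were all below MONO and its RPMI8226 ones all above, and no comparison within a line was called, except RPMI8226 TSW with median-of-ratios scaling (0.63) or the loess correction (0.66). PDIA3, which works with the lectin chaperones, was at 85.9, 62.6 and 74.7 RPKM in MM.1S MONO, 55.15, 57.6 and 57.9 in TSW and 57.25, 58.6 and 53.1 in CO, and between 77.3 and 97.3 in RPMI8226. PDIA4 ranged from 165 to 208 RPKM in MM.1S and from 189.5 to 259.7 in RPMI8226, and was not called.

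The ERAD genes had medians of 0.42 in MM.1S TSW with 3 of 8 called higher and 0.38 in CO with 2, and of 0.77 in RPMI8226 TSW with 5 and 0.76 in CO with 6. Without MM.1S MONO replicate 1 the MM.1S medians were 0.34 with 2 called higher and 0.22 with 1. EDEM1 (gene ID 9695, chr3:5187707-5219958), which trims mannose from misfolded glycoproteins to mark them for degradation, had the largest log2 fold change of the 37 in every comparison with MONO. In MM.1S it stood at 37.7, 67.2 and 65.7 RPKM in MONO, 183, 183 and 182.5 in TSW and 164, 167 and 169.5 in CO. The 3 TSW libraries were within 1 RPKM of one another, and the lowest coculture library was more than double the highest MONO library. The log2 fold change was 1.71 (SE 0.18, adjusted p = 6.46e-05) in TSW and 1.58 (SE 0.18, adjusted p = 0.000109) in CO. In RPMI8226 the levels were 50.04 and 50.95 RPKM in MONO, 170.2 and 141 in TSW and 169 and 158.5 in CO. The log2 fold changes there were 1.60 (SE 0.09, adjusted p = 1.43e-07) and 1.68 (SE 0.09, adjusted p = 7.25e-08), again without overlap.

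HERPUD1 (gene ID 9709, chr16:56932142-56944864), a membrane protein that assembles the ERAD ligase complex, was at 158, 179.9 and 161 RPKM in MM.1S MONO, 310.2, 327 and 305 in TSW and 222, 243 and 219.8 in CO. The TSW libraries were the highest, the CO libraries lay between, and no groups overlapped. It rose in TSW, by 0.91 (SE 0.09, adjusted p = 5.83e-05), and in CO its log2 fold change of 0.45 (SE 0.09, adjusted p = 0.00506) was under 1.5-fold, though 0.65 and called with quantile normalization. In RPMI8226 it stood at 69.15 and 71.1 RPKM in MONO, 166.5 and 152 in TSW and 144 and 134 in CO. Both cocultures were near double the MONO level or above, and it rose by 1.17 (SE 0.07, adjusted p = 3.04e-07) and 0.97 (SE 0.07, adjusted p = 7.82e-07). The promoters of HERPUD1 and EDEM1 are shown as those of the 2 ERAD genes with the largest MM.1S TSW increases. That of HERPUD1, at chr16:56931892-56932191 on the plus strand of GRCh38.p14, held an ERSE-II 117 to 107 bases before the start and a GACGTG 8 to 13 bases after it, both in capitals. That of EDEM1, at chr3:5187457-5187756 on the plus strand, held none of the motifs searched and is in lower case throughout, which says only that these letters are not in this window.
HERPUD1: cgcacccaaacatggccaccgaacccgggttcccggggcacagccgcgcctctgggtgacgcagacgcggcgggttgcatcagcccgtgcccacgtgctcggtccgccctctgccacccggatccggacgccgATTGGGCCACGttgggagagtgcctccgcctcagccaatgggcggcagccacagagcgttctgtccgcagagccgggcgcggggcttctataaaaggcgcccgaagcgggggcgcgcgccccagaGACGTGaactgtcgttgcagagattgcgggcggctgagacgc
EDEM1: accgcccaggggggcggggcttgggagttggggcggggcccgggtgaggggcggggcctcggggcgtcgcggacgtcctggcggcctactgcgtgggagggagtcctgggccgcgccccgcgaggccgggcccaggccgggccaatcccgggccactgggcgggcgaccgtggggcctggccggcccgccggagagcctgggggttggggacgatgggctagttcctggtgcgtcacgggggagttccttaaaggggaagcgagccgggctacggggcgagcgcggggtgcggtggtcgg

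SEL1L, the scaffold of the ERAD ubiquitin ligase, was at 24.9, 44.2 and 47.2 RPKM in MM.1S MONO, 62.5, 70.8 and 70.2 in TSW and 62.9, 56.1 and 55.4 in CO. All coculture libraries exceeded all MONO libraries, of which replicate 1 was the lowest, and the gene rose by 0.84 (SE 0.19, adjusted p = 0.00933) in TSW and 0.62 (SE 0.19, adjusted p = 0.0325) in CO. Without MONO replicate 1 the values were 0.56 and 0.34, both below 1.5-fold. The CO call was also lost without CO replicate 1 (0.57, limma adjusted p = 0.109), 2 (0.65, 0.0652) or 3 (0.66, 0.0742), with the loess correction (0.31), with no filter on low values (0.0657) and with only the 2 conditions in the fit (0.0744). In RPMI8226 SEL1L stood at 15.9 and 16.2 RPKM in MONO, 34.8 and 25.6 in TSW and 36.1 and 32.1 in CO. It rose there by 0.86 (SE 0.12, adjusted p = 0.000135) and 1.04 (SE 0.12, adjusted p = 2.59e-05), with no overlap between MONO and coculture.

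SYVN1, the ubiquitin ligase HRD1 itself, was at 26.4 and 28.75 RPKM in RPMI8226 MONO, 44.2 and 45.2 in TSW and 46.3 and 42.6 in CO. It rose in both cocultures, by 0.68 (SE 0.08, adjusted p = 2.29e-05) and 0.67 (SE 0.08, adjusted p = 1.94e-05). In MM.1S SYVN1 lay at 23.5, 31.2 and 28.1 RPKM in MONO, 37.9, 39.9 and 35.9 in TSW and 36.75, 36.6 and 29.2 in CO, and was not called, at 0.45 in TSW and 0.30, or 0.19 without MM.1S MONO replicate 1, in CO. EDEM2, a mannosidase that acts before EDEM1 on the same glycans, was at 13.6 and 13.6 RPKM in RPMI8226 MONO, 27.5 and 28.1 in TSW and 24.9 and 25.4 in CO, near double in coculture, and rose by 0.98 (SE 0.07, adjusted p = 1.00e-06) and 0.84 (SE 0.07, adjusted p = 2.20e-06). In MM.1S EDEM2 ranged from 10.8 to 14.95 RPKM with both cocultures overlapping MONO, and was not called. EDEM3, of the same family, was at 51.4 and 47.8 RPKM in RPMI8226 MONO, 62.15 and 52.3 in TSW and 81.2 and 79.1 in CO. It rose in CO by 0.68 (SE 0.09, adjusted p = 4.47e-05), a value that was 0.47 with the loess correction, and was not called in TSW at 0.20, which was 0.08 without RPMI8226 TSW replicate 1 and 0.32 without RPMI8226 TSW replicate 2. In MM.1S EDEM3 was at 12.7, 29.25 and 31.8 RPKM in MONO, 29.7, 28.9 and 31.97 in TSW and 34.4, 30.7 and 34.9 in CO, where MONO replicate 1 alone stood apart. Its log2 fold changes there were 0.39 in TSW and 0.52 in CO, and -0.01 and 0.12 without that library. The channel proteins DERL1 and DERL2 were not called, apart from DERL1 in RPMI8226 TSW with the loess correction (0.60) and in RPMI8226 CO with quantile normalization (0.59): DERL1 ranged from 89.5 to 116 RPKM in MM.1S and from 48.8 to 73.6 in RPMI8226, and DERL2 between 9.59 and 12.7 and between 3.76 and 4.88.

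The translocation and traffic genes had medians of 0.14 in MM.1S TSW with 1 of 7 called higher, 0.13 in CO with 0 (limma; 3 at an unadjusted p under 0.05, 0 by voom), and 0.37 and 0.38 in RPMI8226 with 2 called higher in each. In MM.1S, limma called 0 lower in TSW or CO, with 2 lower in each at an unadjusted p under 0.05 and 0 by voom. The RPMI8226 TSW median was 0.23 without MONO replicate 2. SEC24D, which selects cargo for the COPII coat, was at 13.45, 25.4 and 24.8 RPKM in MM.1S MONO, 31.4, 33.2 and 31.9 in TSW and 30.4, 31.3 and 30.1 in CO. MONO replicate 1 was far below the other MONO libraries, which were themselves below all coculture libraries. SEC24D rose in TSW by 0.63 (SE 0.19, adjusted p = 0.0303) and was under 1.5-fold in CO, at 0.56. The TSW call was lost without MONO replicate 1 (0.35, limma adjusted p = 0.00256), without TSW replicate 1, 2 or 3 (0.65, 0.61 and 0.64, adjusted p = 0.0729, 0.0928 and 0.0816) with the loess correction (0.56), with no filter on low values (adjusted p = 0.0675) and with only the 2 conditions in the fit (adjusted p = 0.0856). The CO value was 0.28 without MONO replicate 1, 0.71 and called without MONO replicate 2, and 0.69 and called without MONO replicate 3. In RPMI8226 SEC24D stood at 22.4 and 24.03 RPKM in MONO, 48.9 and 44.3 in TSW and 45.1 and 40.4 in CO, and rose by 0.98 (SE 0.08, adjusted p = 3.36e-06) and 0.85 (SE 0.08, adjusted p = 6.45e-06).

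SEC23B, its partner in the COPII coat, was at 48.9 and 51.95 RPKM in RPMI8226 MONO, 80.5 and 74.1 in TSW and 68.1 and 63.3 in CO. It rose in TSW, by 0.61 (SE 0.07, adjusted p = 4.58e-05), a value just over 1.5-fold that was 0.56 without MONO replicate 1 and 0.55 without TSW replicate 1, and was 0.38 in CO. In MM.1S SEC23B ranged from 31.8 to 53.9 RPKM and was not called. SPCS3, a subunit of the signal peptidase, was at 54.99 and 45.7 RPKM in RPMI8226 MONO, 70.6 and 59.6 in TSW and 97.3 and 88.2 in CO. It rose in CO by 0.87 (SE 0.11, adjusted p = 3.08e-05), and its TSW value was 0.37, or 0.23 without RPMI8226 MONO replicate 2. In MM.1S SPCS3 ranged from 69.8 to 96.5 RPKM with all groups overlapping. The other 4 were not called in either line, apart from KDELR2 in RPMI8226 TSW with the loess correction (0.64). SEC61A1 and SEC61B, subunits of the translocation channel, ranged from 159.8 to 212 and from 239 to 429 RPKM in MM.1S, and from 202 to 242.5 and from 184 to 238 in RPMI8226. SSR1, which aids translocation at the channel, ranged from 39.1 to 64.1 and from 76.1 to 110.4 RPKM in the 2 lines, and KDELR2, the receptor that returns escaped chaperones to the ER, from 38.6 to 44.3 and from 44.9 to 66.6. In MM.1S every coculture library lay below every MONO library for SEC61A1 and SEC61B, and above every MONO library for SSR1 and KDELR2.

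The summed level of each role showed how these genes weigh against one another, since RPKM is per length. The chaperones summed to 2423 ± 165 RPKM (SD, n = 3) in MM.1S MONO, 2229 ± 51.9 in TSW and 2162 ± 37.6 in CO, and to 2982 ± 36.6 (n = 2), 3517 ± 84.4 and 3489 ± 198 in RPMI8226. The disulfide isomerases went from 889 ± 39.4 RPKM in MM.1S MONO to 777 ± 39.6 and 719.8 ± 49.4, against 860.2 ± 13.1, 1360.0 ± 32.7 and 1219 ± 25.7 in RPMI8226. The isomerase sum was thus lower in coculture than in MONO in MM.1S and higher in RPMI8226. The lower chaperone sum of MM.1S coculture was mostly that of CALR, since the other 11 chaperones summed to 1518 ± 46.4 RPKM in MONO, 1539 ± 47.8 in TSW and 1481 ± 11.85 in CO, against 1917 ± 28.9, 2346 ± 131.5 and 2348 ± 129.9 in RPMI8226. The ERAD genes summed to 429 ± 47.7 RPKM in MM.1S MONO, 773 ± 14.2 in TSW and 651 ± 16.04 in CO, and to 281 ± 0.345, 549.8 ± 47.9 and 561 ± 27.0 in RPMI8226. The sensors and their transcription factors, mostly XBP1, summed to 516 ± 16.4, 916 ± 37.1 and 853 ± 64.8 RPKM in MM.1S and to 266 ± 1.26, 575 ± 7.67 and 532 ± 5.26 in RPMI8226. These 2 roles were higher in every coculture library than in any MONO library of the same line. The traffic genes summed to 779.7 ± 44.5, 712 ± 4.51 and 694 ± 13.9 RPKM in MM.1S and to 691 ± 12.7, 788 ± 61.3 and 764 ± 44.4 in RPMI8226.

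**Figure D3:**
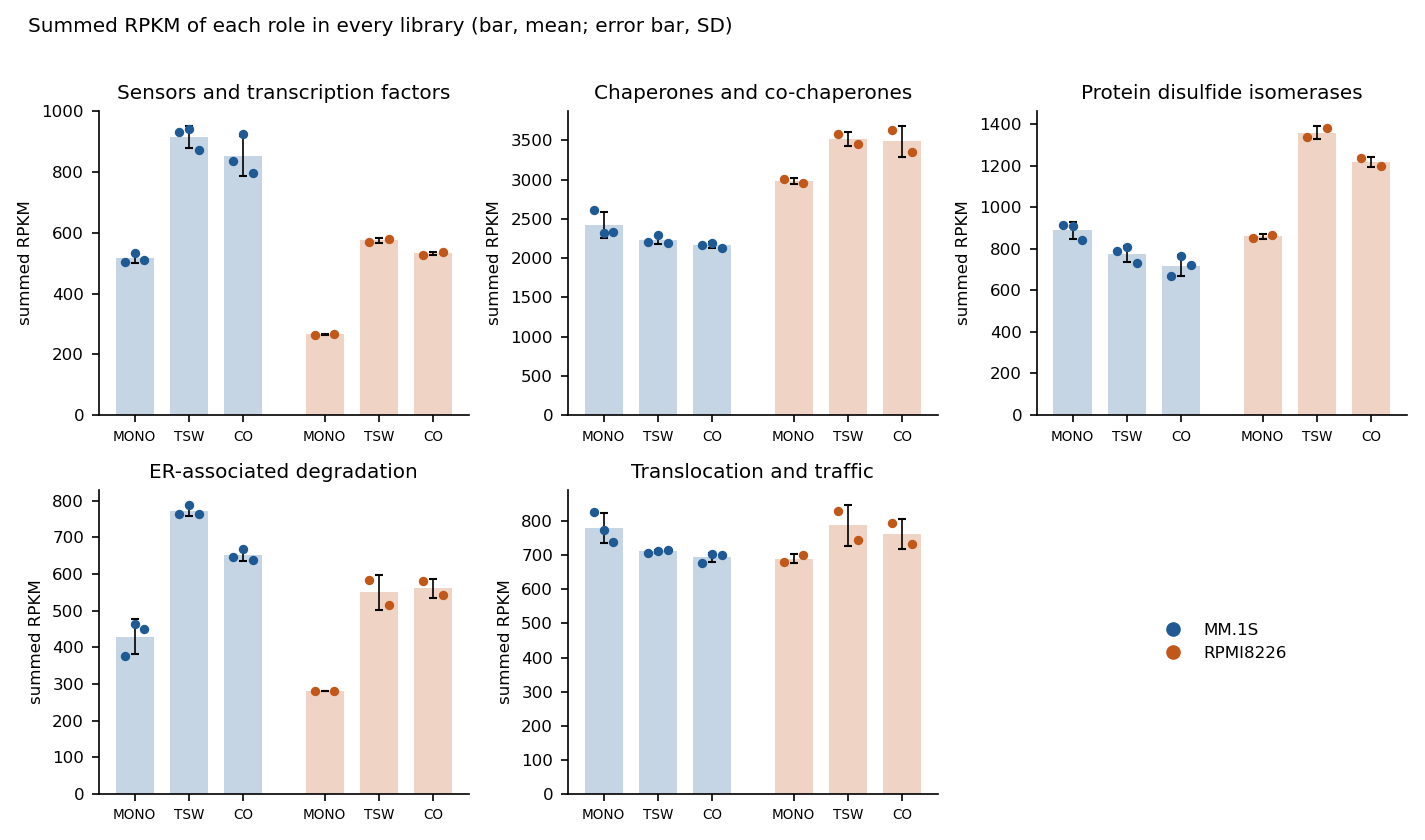
Summed RPKM (y axis) of the genes of each role in each library of the 3 conditions (x axis), with points for libraries, bars for means and error bars for SD, MM.1S in blue and RPMI8226 in orange. The ERAD and sensor sums are higher in coculture in both lines, whereas the isomerase sum goes from a mean of 889 to 777 RPKM in MM.1S TSW and from 860.2 to 1360.0 in RPMI8226 TSW.

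CO and TSW cells differ in contact with HS5 cells and were compared within each line. In MM.1S, limma called 0 of the 37 higher and 0 lower, beside 0.374% and 0.0394% of all genes, with 0 higher and 2 lower at an unadjusted p under 0.05 and 0 either way by voom. The 2 were HERPUD1, at -0.46 (SE 0.09, adjusted p = 0.0946), and EDEM2, at -0.22. In RPMI8226, 0 were called higher, beside 1.9% of all genes (limma; 7 at an unadjusted p under 0.05, 0 by voom), and 1 was called lower, beside 2.39%. The 1 was SDF2L1, at -0.63 (SE 0.08, adjusted p = 0.000776), or -0.53 without CO replicate 1, -0.58 with quantile normalization and -0.30 with the loess correction, all below 1.5-fold. On adjusted p alone, 5 were higher in RPMI8226 CO, led by DNAJB9 at 0.54 (SE 0.11, adjusted p = 0.0053) and SPCS3 at 0.51 (SE 0.11, adjusted p = 0.00687), and 6 were lower, among them MANF at -0.41 (SE 0.09, adjusted p = 0.00928), or -0.27 without RPMI8226 CO replicate 2. On adjusted p alone, 1045 of all 10319 genes were higher and 1804 lower, so the 37 were near the share of all genes. The count called higher was 3 without TSW replicate 1 (DNAJB9 at 0.70, SPCS3 at 0.63 and EDEM3 at 0.61), 1 without CO replicate 2 (DNAJB9 at 0.60) and 2 with quantile normalization (DNAJB9 and SPCS3). Over all genes this comparison called 196 higher and 247 lower in RPMI8226, against 241 and 176 with median-of-ratios scaling, 261 and 176 with quantile normalization, 165 and 120 with the loess correction, 383 and 335 without TSW replicate 1 and 132 and 187 without TSW replicate 2. Stromal markers were kept in the counts of all genes, and 16 of the 38 genes called higher in MM.1S CO against TSW were among the 30, as were 9 of the 196 in RPMI8226. The medians of the 37 were -0.07 in MM.1S and -0.04 in RPMI8226, beside medians of all genes of 0.00 and -0.04. The RPMI8226 value turned to 0.0023 with median-of-ratios scaling, 0.028 with quantile normalization and 0.00045 with the loess correction.

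Differences between the lines were tested as the fold change in MM.1S minus that in RPMI8226, by an interaction in limma over all 15 libraries and the 9397 genes that passed the filter in both lines. In TSW against MONO, 6 of the 37 had a lower fold change in MM.1S, beside 10.9% of all genes, and 0 a higher one, beside 16% (1 at an unadjusted p under 0.05), where 26.8% of all genes differed either way. P4HB had the largest of these differences, -1.01 (SE 0.15, adjusted p = 0.000128), followed by EDEM2 at -0.86 (SE 0.13, adjusted p = 0.000193), PDIA6 at -0.83 (SE 0.13, adjusted p = 0.000275), EIF2AK3 at -0.83 (SE 0.24, adjusted p = 0.0155), DNAJB9 at -0.80 (SE 0.19, adjusted p = 0.00385) and MANF at -0.71 (SE 0.18, adjusted p = 0.00637). In CO against MONO, 7 had a lower fold change in MM.1S, beside 11.3%, and 0 a higher one, beside 20.6% (1 at an unadjusted p under 0.05), where 31.9% differed either way. The 7 were DNAJB9 at -1.29 (SE 0.19, adjusted p = 7.77e-05), P4HB at -0.99 (SE 0.15, adjusted p = 0.000103), EDEM2 at -0.94 (SE 0.13, adjusted p = 6.12e-05), EIF2AK3 at -0.89 (SE 0.24, adjusted p = 0.00853), SPCS3 at -0.82 (SE 0.20, adjusted p = 0.00381), PDIA6 at -0.75 (SE 0.13, adjusted p = 0.000429) and PDIA3 at -0.66 (SE 0.15, adjusted p = 0.0032). In CO against TSW limma called 0 in either direction, beside 0.138% of all genes either way, 0.0958% higher and 0.0426% lower in MM.1S (9 and 4 genes, or 34 and 26 without MM.1S MONO replicate 2), with 0 higher and 1 lower at an unadjusted p under 0.05. For XBP1 the differences were -0.37 (SE 0.14, adjusted p = 0.0452) and -0.31 (SE 0.14, adjusted p = 0.0779), under 1.5-fold, and for EDEM1 0.12 and -0.10, or -0.15 and -0.36 without MM.1S MONO replicate 1. The median difference over the 37 was -0.26 in TSW and -0.30 in CO, whereas over all genes it was 0.12 and 0.14.

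The number of differences also moved with the scaling between libraries. With median-of-ratios scaling 9 were lower in MM.1S in TSW, beside 12.9% of all genes lower and 12.4% higher, and 12 in CO, beside 14.7% and 15.2%. With the loess correction these were 9, beside 13.3% and 12.3%, and 14, beside 15.3% and 15.5%, and with quantile normalization 7, beside 12.7% and 12.8%, and 8, beside 15.1% and 16%. Median-of-ratios scaling added PDIA4, PDIA3 and CALR in TSW, and HYOU1, HERPUD1, MANF, DNAJC3 and CALR in CO. The loess correction added SPCS3, PDIA4 and PDIA3 in TSW, and the same 5 with PDIA4 and HSP90B1 in CO, and quantile normalization added CRELD2 in TSW and DNAJC3 in CO. The median differences over the 37 were -0.39 and -0.47 with the loess correction, and those over all genes 0.01 and 0.02.

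Some of these differences rested on single libraries. Without MM.1S MONO replicate 1 the TSW difference of MANF was -0.58 (limma adjusted p = 0.00285) and the CO difference of PDIA3 -0.55 (adjusted p = 0.00126), both under 1.5-fold. The TSW difference of EIF2AK3 was not called without RPMI8226 MONO replicate 1 (-0.77, adjusted p = 0.0633) or TSW replicate 1 (-0.75, adjusted p = 0.0638). Other differences were called with 1 library left out. Without MM.1S MONO replicate 1 these were SEC24D at -0.63 in TSW, and SEL1L at -0.70, DNAJC3 at -0.73 and ERN1 at -0.61 in CO. Without MM.1S MONO replicate 3 they were PDIA4 at -0.59 and CALR at -0.61 in TSW, and HYOU1 at -0.60, MANF at -0.60 and CALR at -0.60 in CO. PDIA4 was also called in TSW without MM.1S TSW replicate 1 (-0.59) or 2 (-0.59) or RPMI8226 TSW replicate 1 (-0.60), PDIA3 without MM.1S MONO replicate 2 (-0.65) or RPMI8226 TSW replicate 2 (-0.61), and CRELD2 without MM.1S TSW replicate 2 (-0.63). Without RPMI8226 CO replicate 2, HYOU1 (-0.64) and MANF (-0.64) were called in CO. Of the 37, 28 had a higher fold change in RPMI8226 in TSW and 32 in CO, against 40.4% and 39.8% of all genes, or 34 and 35 against 49.1% and 48.7% with the loess correction. Across the 37 genes the fold changes of the 2 lines had a Pearson r of 0.72 in TSW and 0.73 in CO, and across all 9397 genes 0.43 and 0.52, as a description only, since genes are not independent replicates. All 7 genes called higher in MM.1S TSW were also called higher in RPMI8226 TSW, and all 5 of MM.1S CO in RPMI8226 CO, which is 7 of 14 and 5 of 16 of those called in RPMI8226. Of all genes called higher in MM.1S and tested in both lines, 327 of 598 (54.7%) were also called higher in RPMI8226 TSW and 390 of 652 (59.8%) in RPMI8226 CO.

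**Figure D4:**
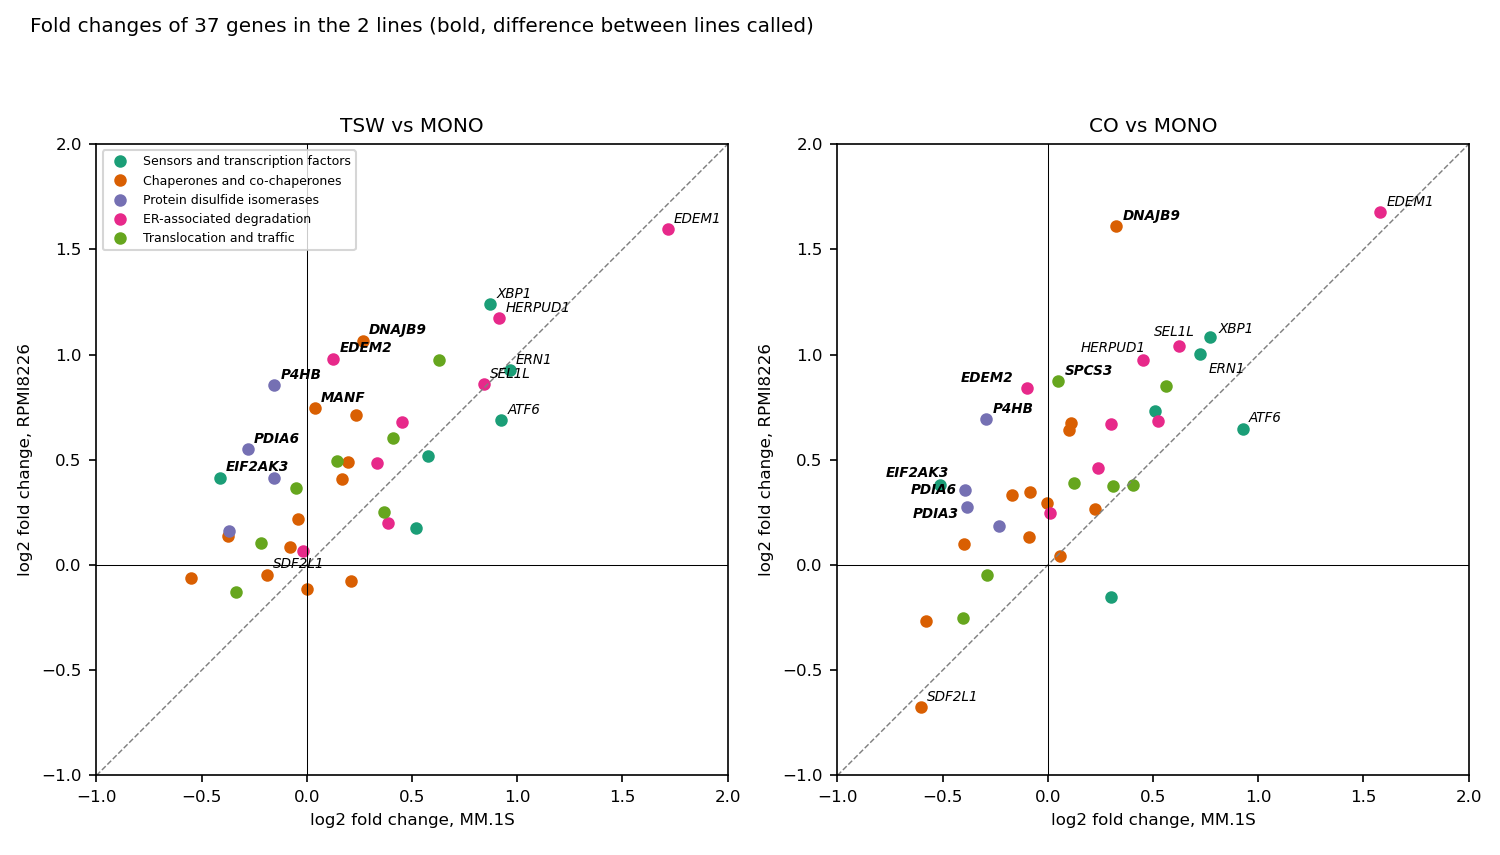
Log2 fold change in MM.1S (x axis) against that in RPMI8226 (y axis) for each of the 37 genes, in TSW against MONO (left) and CO against MONO (right), with colours for roles, the dashed line where both are equal, and bold names where the difference between lines was called. Of the 37 points, 28 lie above the dashed line on the left and 32 on the right, and P4HB, PDIA6 and EIF2AK3 lie left of 0 in MM.1S and above 0 in RPMI8226.

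Promoter sequences of 33 of the 37 genes were found in the RefSeq table, and those of DERL1, KDELR2, PDIA3 and SEC24D were not analysed here. Both strands of the 300 bases were searched. The ERSE was found in 6 of the 33 (18.2%), CALR, CANX, CRELD2, HSP90B1 with 2 copies, HSPA5 and XBP1, against 0.0806% of the 27305 promoters in the table. Since the ERSE was described from promoters of ER chaperone genes, its higher share among these genes is no independent result. Its relaxed form, ending in CCANG, overlaps it by construction and was found in 7 (21.2% against 0.399%), with SEL1L as the further gene. ERSE-II was found in HERPUD1, HYOU1 and SDF2L1 (9.09% against 0.0549%), and TGACGTGG in DNAJC10 and HYOU1 (6.06% against 0.795%). GACGTG, which TGACGTGG contains, was found in 6, DNAJC10, EDEM3, EIF2AK3, HERPUD1, HYOU1 and SSR1 (18.2% against 7.89%), and 19 of the 33 held none of these motifs. Among the 8937 promoters of genes tested, a closer match to the 33 since all of them were tested, the shares were 0.157% for ERSE, 0.537% for its relaxed form, 0.123% for ERSE-II, 0.906% for TGACGTGG and 10.9% for GACGTG. Among the 6 genes with an ERSE, XBP1 was the 1 called higher in each comparison with MONO. Their median log2 fold change was -0.04 in MM.1S TSW, -0.04 in MM.1S CO, 0.11 in RPMI8226 TSW and 0.20 in RPMI8226 CO, and that of the 27 without it was 0.21, 0.11, 0.52 and 0.64. The 6 with an ERSE, apart from XBP1, are in the chaperone role. In the same order ERSE-II had 0.23, 0.11, 0.71 and 0.68 in 3 genes with it, against 0.15, 0.05, 0.41 and 0.38 in 30 without. GACGTG had 0.30, 0.31, 0.33 and 0.53 in 6 genes, against 0.04, 0.01, 0.49 and 0.36 in 27. TGACGTGG had 0.22, 0.17, 0.32 and 0.47 in 2 genes, against 0.12, 0.05, 0.41 and 0.38 in 31. The relaxed ERSE had lower medians with it than without in each.

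**Figure D5:**
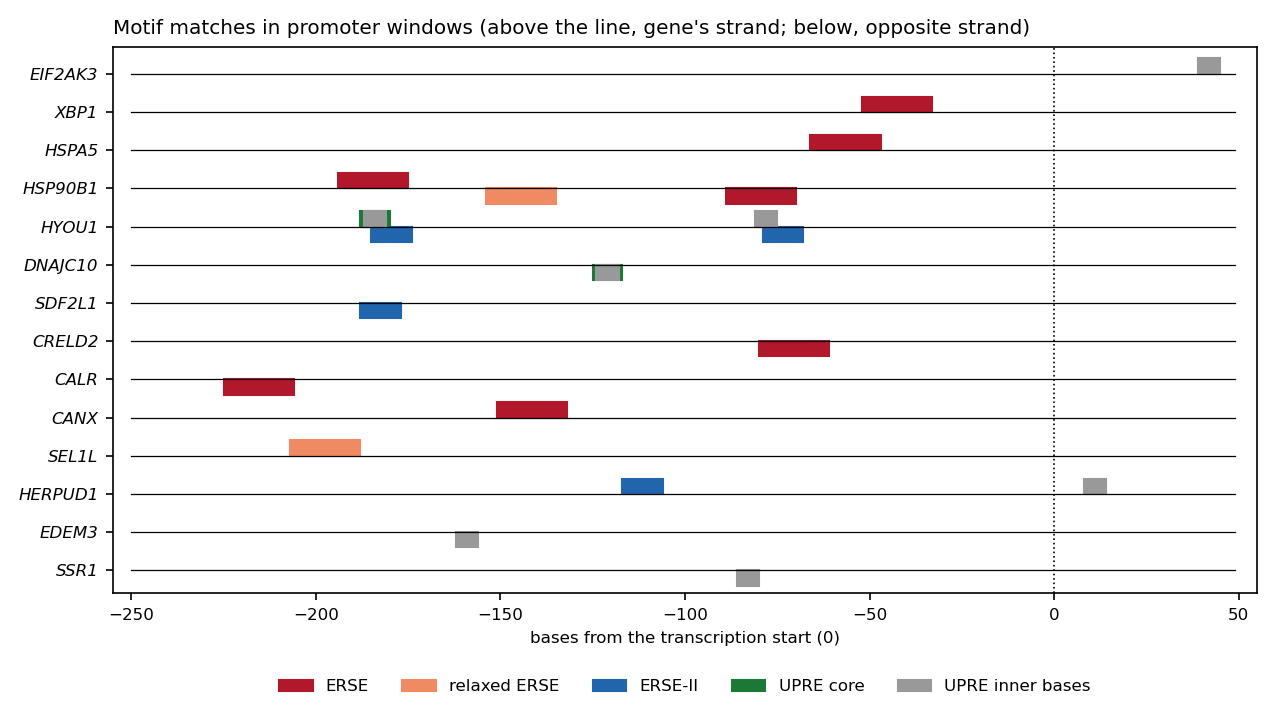
Motif matches in the promoters of the 14 genes that held any, by distance in bases from the transcription start (x axis), above the line where on the gene's strand and below where on the opposite strand, with UPRE core for TGACGTGG and UPRE inner bases for GACGTG. XBP1 and HSPA5 hold an ERSE at like distances, 52 and 66 bases before the start, and HYOU1 holds matches of 3 kinds.

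Other genes of these pathways were counted by lists. In the PERK and ATF4 branch, which is known for amino acid and stress genes, 12 of 14 tested rose and 1 fell in MM.1S TSW with a median of 1.27, and 9 rose and 1 fell in CO with a median of 0.84. In RPMI8226 12 rose and 1 fell in TSW with a median of 1.47, and 10 rose and 1 fell in CO with 1.32. The 2 largest increases of these pathway lists in every comparison with MONO were those of DDIT4, an inhibitor of mTOR signalling, and CHAC1, an enzyme that breaks down glutathione. DDIT4 stood at 18.6, 20.4 and 15.5 RPKM in MM.1S MONO, 128, 114 and 118.5 in TSW and 138, 172 and 167 in CO, and at 39.9 and 43.3, 458 and 428 and 428 and 433 in RPMI8226. CHAC1 was at 1.85, 3.735 and 2.66 RPKM in MM.1S MONO, 42.7, 43.8 and 42.2 in TSW and 22.25, 27.7 and 24.9 in CO, and at 0.514 and 0.390, 14.6 and 10.6 and 12.5 and 9.825 in RPMI8226. Neither gene had any overlap between MONO and coculture, and the log2 fold changes were 2.66 and 3.06 for DDIT4 and 3.58 and 2.82 for CHAC1 in MM.1S, and 3.38, 3.34, 3.21 and 3.06 in RPMI8226. The transcription factor ATF5 had the largest decrease of the pathway lists in each, -1.41 and -1.33 in MM.1S and -0.93 and -1.05 in RPMI8226. It was followed by 2 thioredoxin-like ER proteins in MM.1S, TXNDC11 at -0.62 in TSW and TXNDC5 at -0.95 in CO, and by 2 ERAD genes in RPMI8226, UBE2G2 at -0.68 in TSW and AUP1 at -0.95 in CO. In RPMI8226 CO against TSW, SRP9 (1.06) and TRAM1 (0.69), both of protein translocation, rose, and TRIB3 (-0.68), a stress-induced pseudokinase, fell.

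The remaining lists are counted here in the 2 lines, whose shares of all genes called differ as given above. Of other ER folding and redox genes, 2 rose and 2 fell of 26 in MM.1S TSW and 2 rose and 3 fell in CO, whereas of 28 in RPMI8226 11 rose in TSW (median 0.54) and 12 in CO (0.54) and 0 fell in either (limma; 1 and 3 at an unadjusted p under 0.05, 0 by voom). The interaction called 12 of 26 lower in MM.1S in TSW and 14 in CO. Of 22 other ERAD genes, limma called 0 in either direction in MM.1S TSW (6 higher and 7 lower at an unadjusted p under 0.05) and CO (4 higher and 9 lower), with 0 by voom. In RPMI8226, 4 of them rose and 3 fell in TSW, and 4 rose and 5 fell in CO. Of 28 other translocation, signal peptidase and oligosaccharyltransferase genes, 0 were called in MM.1S TSW (limma; 3 higher and 5 lower at an unadjusted p under 0.05, 0 by voom) and 2 fell in CO, whereas in RPMI8226 8 rose and 1 fell in TSW and 6 rose and 1 fell in CO. Of 23 other COPII, cargo receptor and retrieval genes, 1 rose in each MM.1S comparison with MONO, 8 rose in RPMI8226 TSW (median 0.37), and 5 rose and 1 fell in CO (0.44). Of 8 proteases and regulators of sensor activation, 1 rose in each MM.1S comparison with MONO and 2 in each RPMI8226 comparison with MONO. With median-of-ratios scaling, 11 of the 28 translocation genes, 11 of the 23 COPII genes and 4 of the 8 proteases and regulators rose in RPMI8226 CO, and 1 of the 22 ERAD genes fell in TSW and 3 in CO. Of all 10319 genes, 2021 then rose in RPMI8226 CO, against 1693 without that scaling. Those that fell were 1560 in TSW and 1904 in CO, against 1852 and 2363. Without MM.1S MONO replicate 3, 5 of the 26 folding genes fell in MM.1S TSW and 7 in CO. Of all 10153 genes, 583 and 678 then fell, against 422 and 472 with all libraries.

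Transcript length differed among the 37 genes and moved with the fold changes of all genes. Of the 37, 9 were among the longest 25% of all genes tested, among them SEL1L (8578 bases), ATF6 (7630) and EDEM1 (6975), and 8 were among the shortest 25%, such as SDF2L1 (874). Over all genes the longest and the shortest 25% had medians of 0.17 and -0.14 in MM.1S CO against MONO, and of 0.06 and -0.28 in RPMI8226 CO. With each library corrected for GC content and length by loess, EDEM1 kept log2 fold changes of 1.59 and 1.43 in MM.1S and 1.62 and 1.64 in RPMI8226, and XBP1, which is of 1820 bases, kept 0.93, 0.87, 1.39 and 1.37. Calls lost were those of SEL1L (0.31 against 0.62) in MM.1S CO, SEC24D (0.56 against 0.63) in MM.1S TSW, ATF6 (0.50 against 0.65), DNAJC3 and EDEM3 in RPMI8226 CO, and SDF2L1 in each comparison where it was called. Calls gained within a line were those of WFS1 in MM.1S TSW, EIF2AK3, lower, in MM.1S CO, DERL1, KDELR2 and PDIA6 in RPMI8226 TSW and MANF in RPMI8226 CO.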

How the data were processed

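The authors deposited 1 table of log2(RPKM + 1) values per line, offset by 0.0001, from reads assigned with Subread and featureCounts on hg38 per the submitters' notes; the offset was subtracted and the values returned to RPKM. The design had assumed RPKM. Whole reads recovered from the values gave depth. Recovery accepted only reads within 0.05 of a whole number, so the 100% that met this is no check. The transcript lengths implied were within 0.05 of a whole base for 92.5% of genes. Genes averaging 1 RPKM or more over a line were fitted with limma 3.58.1 (R 4.3.3; lmFit, contrasts.fit, eBayes with trend) on log2(RPKM + 1), the 3 conditions of a line in 1 fit, and differences between lines as an interaction over the 15 libraries; calls needed a p under 0.05 after Benjamini-Hochberg adjustment and a 1.5-fold change. Python 3.11.15 (numpy 2.4.6, pandas 2.3.3, matplotlib 3.10.9) did the rest, and the code was tested on simulated data.

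The members and lists were chosen with earlier results of these data known. Fixed in advance for naming were XBP1, ATF6, ERN1, EIF2AK3, HSPA5 and HSP90B1, the members called in a comparison, the 2 largest increases and decreases of the other lists, SDC1, CD38, THY1 and the most abundant marker of each list. CALR, CRELD2, COL1A2, S100A6, TNFRSF17, IRF4, PRDM1 and POU2AF1 were singled out after their values were seen. Alternatives were a pseudocount of 0.1, no filter, quantile normalization, a filter at a mean RPKM of 5, scaling by median of ratios, a replicate block, only the 2 conditions compared, eBayes without trend, no fold change threshold, voom on the recovered reads, each library left out, and, chosen after seeing the data, loess correction for GC content and length. Stromal signature genes, left out of the study's own analyses, were kept here. Retention signals of the proteins were not analysed here, since no protein sequences were available.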

Additional observations from a re-analysis of the deposited data

Results flagged for a closer look

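All 13 results listed here are differences between the 2 lines in the response to coculture, tested by the interaction in limma, and all were lower in MM.1S than in RPMI8226. In TSW against MONO they were, as log2 fold change in MM.1S minus that in RPMI8226, -1.01 for P4HB, -0.86 for EDEM2, -0.83 for PDIA6, -0.83 for EIF2AK3, -0.80 for DNAJB9 and -0.71 for MANF. In CO against MONO they were -1.29 for DNAJB9, -0.985 for P4HB, -0.94 for EDEM2, -0.89 for EIF2AK3, -0.82 for SPCS3, -0.75 for PDIA6 and -0.66 for PDIA3. They are 6 and 7 of the 37 genes, 16.2% and 18.9%, beside 10.9% and 11.3% of all genes with a fold change called lower in MM.1S than in RPMI8226, and 26.8% and 31.9% called either way. The same counts were 9 and 12 with median-of-ratios scaling, beside 12.9% and 14.7% of all genes, and 9 and 14 when loess corrected for GC content and length, beside 13.3% and 15.3%. The calls of MANF in TSW and PDIA3 in CO were lost without MM.1S MONO replicate 1, and that of EIF2AK3 in TSW without RPMI8226 MONO replicate 1 or TSW replicate 1. The 2 comparisons share the MONO libraries of each line.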

How the results depend on the processing

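The 4 comparisons with MONO kept a positive median for the ER genes under every setting, except that of MM.1S CO when GC content and length were corrected by loess, and XBP1 and EDEM1 stayed called in all 4. All 37 were tested under each setting, except that 35 were tested in RPMI8226 at a mean RPKM of at least 5. Where another setting changed a result below, the cause was not tested, apart from settings with fewer libraries or another threshold. The lone library left in a condition of RPMI8226 when the other was left out was assumed to vary like the other groups. At the lowest depth, 1 read on a transcript of 2 kb was 0.0555 RPKM.

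By setting, the counts of the 37 genes changed as follows. With a pseudocount of 0.1, 1 fell in MM.1S TSW and 2 in MM.1S CO against MONO. With no filter on low values, 6 rose in MM.1S TSW and 3 rose and 0 fell in MM.1S CO, and the same with only the 2 conditions compared. With median-of-ratios scaling, 2 fell in MM.1S CO and 0 in RPMI8226 CO, 9 differed between lines in TSW and 12 in CO, 16 rose in RPMI8226 TSW, and the medians were 0.56 in RPMI8226 TSW, 0.50 in CO and 0.0023 in CO against TSW. With quantile normalization, 1 fell in MM.1S TSW and 0 in RPMI8226 CO, 6 rose in MM.1S CO and 17 in RPMI8226 CO, with medians of 0.18 in MM.1S CO and 0.51 in RPMI8226 CO, and in RPMI8226 CO against TSW 2 rose and 0 fell with a median of 0.028. It also turned HSP90B1 to 0.012 in MM.1S TSW, 0.12 in MM.1S CO and -0.041 in RPMI8226 TSW, and HSPA5 to 0.18 in MM.1S CO, and 7 differed between lines in TSW and 8 in CO. With no fold change threshold, 12 rose and 2 fell in MM.1S TSW, 10 and 8 in MM.1S CO, 24 rose in RPMI8226 TSW, 27 rose and 3 fell in CO, and 5 rose and 6 fell in RPMI8226 CO against TSW, and 13 differed between lines in TSW and 15 in CO. With voom, 1 fell in MM.1S TSW and 2 in MM.1S CO. With loess, 4 rose in MM.1S CO, 17 in RPMI8226 TSW and 14 in RPMI8226 CO, 0 fell in RPMI8226 CO against MONO or TSW, 9 differed between lines in TSW and 14 in CO, and the medians were -0.015 in MM.1S CO, 0.50 in RPMI8226 CO and 0.00045 in RPMI8226 CO against TSW.

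With 1 library left out, 5 to 8 of the 37 rose and 0 to 1 fell in MM.1S TSW (median 0.14 to 0.19), 3 to 8 rose and 0 to 2 fell in MM.1S CO (0.053 to 0.13), and 0 rose and 0 fell in MM.1S CO against TSW (-0.10 to -0.06). In RPMI8226, 13 to 15 rose and 0 fell in TSW (0.43 to 0.53), 15 to 16 rose and 0 to 1 fell in CO (0.35 to 0.47), and 0 to 3 rose and 0 to 1 fell in CO against TSW (-0.11 to -0.0088). Between lines, 5 to 8 differed in TSW, 7 to 10 in CO and 0 in CO against TSW. HSPA5 in MM.1S CO ranged from -0.056 to 0.051 and HSP90B1 in RPMI8226 TSW from -0.0016 to 0.17.

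With the replicate number as a block, 0 of the 37 fell in MM.1S CO against MONO, where SDF2L1 was at -0.60 (limma adjusted p = 0.0612), and no other call of the 37 changed. Over all genes it gave 736 higher and 473 lower in MM.1S CO against MONO. The difference between lines in CO against TSW was then called higher in MM.1S for 6 genes and lower for 1, against 9 and 4 without the block. Deviations of libraries with the same number correlated at -0.38 to 0.29 in MM.1S and 0.16 to 0.27 in RPMI8226, so the numbers were not taken as pairs.

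Over all genes, the counts higher and lower were 658 and 422 in MM.1S TSW, 724 and 472 in CO, and 38 and 4 in CO against TSW, and 1500 and 1852, 1693 and 2363, and 196 and 247 in RPMI8226. With no fold change threshold they were 1459 and 1310, 1647 and 1528, 39 and 5, 2996 and 3925, 3123 and 4299, and 1045 and 1804. MM.1S CO against TSW gave 128 and 6 with no filter, 5 and 2 with a mean RPKM of at least 5, 38 and 7 with quantile normalization and 43 and 11 with only the 2 conditions. MM.1S TSW gave 457 and 283 and MM.1S CO 479 and 343 with a mean RPKM of at least 5. RPMI8226 CO against TSW gave 296 and 346 with a pseudocount of 0.1, 322 and 350 with voom, 165 and 120 with loess, and 383 and 335 without RPMI8226 TSW replicate 1. With 1 library left out MM.1S CO against TSW gave 30 to 43 and 2 to 8. The counts higher were then 546 to 909 in MM.1S TSW and 541 to 1018 in MM.1S CO.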

Other observations

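JCHAIN, the most abundant plasma cell marker, moved in opposite directions in the 2 lines. In MM.1S it went from 4102, 3402 and 3754 RPKM in MONO to 2134, 1966 and 2125 in TSW and 2020.0, 2010.0 and 1924 in CO, and fell by log2 fold changes of -0.85 (SE 0.14, adjusted p = 0.0012) and -0.91 (SE 0.14, adjusted p = 0.000764) in limma. In RPMI8226 it went from 1465 and 1366 RPKM to 2585 and 2353 and 2927 and 2815, and rose by 0.80 (SE 0.07, adjusted p = 5.95e-06) and 1.02 (SE 0.07, adjusted p = 7.21e-07). The difference between lines was -1.65 (SE 0.17, adjusted p = 6.62e-06) in TSW and -1.93 (SE 0.17, adjusted p = 1.08e-06) in CO. CD38, a gene of the sort, was at 38.4, 64.98 and 61.6 RPKM in MM.1S MONO, 46.9, 50.03 and 49.7 in TSW and 58.05, 57.4 and 61.4 in CO, with no call. In RPMI8226 it was at 16.02 and 15.97 RPKM in MONO, 49.6 and 41.99 in TSW and 52.2 and 53.7 in CO, and rose by 1.46 (SE 0.09, adjusted p = 2.21e-07) and 1.67 (SE 0.09, adjusted p = 6.10e-08). The difference between lines in CD38 was -1.59 (SE 0.23, adjusted p = 0.000117) in TSW and -1.53 (SE 0.23, adjusted p = 0.000104) in CO. Of the 8 plasma cell markers tested in both lines, 3 had a lower fold change in MM.1S and 2 a higher one, in TSW and in CO. The marker TNFRSF17 had means of 172.7, 48.2 and 37.9 RPKM in MM.1S MONO, TSW and CO, and 70.9, 5.42 and 4.05 in RPMI8226. IRF4 had means of 117.9, 154.3 and 127.1 RPKM in MM.1S, and 78.3, 40.4 and 40.8 in RPMI8226. The means of PRDM1 and POU2AF1 were higher in coculture in both lines. PRDM1 had means of 31.0, 52.1 and 49.9 RPKM in MM.1S, and 8.08, 16.4 and 18.7 in RPMI8226. Those of POU2AF1 were 68.5, 114.4 and 92.6 RPKM in MM.1S, and 61.8, 131.8 and 125.3 in RPMI8226.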
